A study of Mus musculus with 8 samples.

Results

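Ebf1, Ebf2, Ebf3 and Insm1 are 4 genes for nuclear DNA-binding proteins, taken here from a deposited table of 22558 mouse genes by symbol. They were selected on the table's own FPKM values, because Ebf3 and Insm1 lay far higher in cells induced to overexpress Oct6 than in control cells of the same day. Ebf1 and Ebf2 were added as relatives of Ebf3. The difference between the arms is therefore what selected the genes, and it is given as a description with no test. The samples were 6 RNA-seq libraries of embryoid bodies grown from the mouse embryonic stem cell lines R1 and R1/E, which had been kept on feeder cells. Of these libraries, 3 came from cells in which doxycycline induced Oct6, at days 2, 4 and 6, and 3 came from control cells at days 2, 4 and 6, with 1 library per arm and day. At day 4 there was also 1 Oct6 ChIP library and 1 input library, both labelled as cells overexpressing Oct6. These 2 carry neural differentiation in their time label and the RNA libraries carry embryoid body, so the peaks and the transcript levels may come from different cultures. The labels name doxycycline for the induced libraries only; they leave unsaid whether the control cells were given the drug and whether both arms derive from 1 line, so effects of the drug or of the line cannot be told apart from those of Oct6. The titles carry an unexplained prefix, fbs, while the growth protocol describes differentiation without serum.

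The Ebf proteins (early B-cell factors, also called COE or Olf-1 proteins) bind DNA through a zinc-containing domain and pair through a helix-loop-helix domain. In the embryonic nervous system they are switched on in newly born neurons, after proneural factors of the Neurogenin and NeuroD type, and promote migration and differentiation. Insm1 is a zinc finger repressor with an N-terminal SNAG domain that recruits histone demethylases and deacetylases, and it is transiently made in neuronal progenitors, newborn neurons and endocrine cells. Oct6, the product of Pou3f1, is a POU-domain factor of the early epiblast and of neural tissue, and POU proteins recognise the octamer ATGCAAAT and related letters.

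The peaks carry the only measurement here of Oct6 itself at these genes, and sequences of 8 of them are shown to let the letters under the peaks be read. They are 133 bases each, from the NCBIM37 genome (mm9), plus strand, 5′ to 3′. They comprise the peak in Ebf1 nearest to the gene's start, the Ebf1 peak inside the gene that holds ATGCAA (intron 6), the Ebf2 peak upstream of the gene that holds POU motifs and the Ebf2 peak with the highest score, and every peak found for Ebf3 and Insm1. Capitals mark ATGCAAAT, ATGCAA or ATGCATAT on either strand, so ATTTGCAT and TTGCAT are the same motifs read from the other strand.
Ebf1, chr11:44447945-44448077: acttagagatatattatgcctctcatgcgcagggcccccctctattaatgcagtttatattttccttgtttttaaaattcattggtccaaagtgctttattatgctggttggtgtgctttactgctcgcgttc
Ebf1, chr11:44673538-44673670: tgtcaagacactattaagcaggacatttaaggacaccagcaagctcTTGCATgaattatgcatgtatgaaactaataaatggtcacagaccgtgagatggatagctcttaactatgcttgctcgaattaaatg
Ebf2, chr14:67788527-67788659: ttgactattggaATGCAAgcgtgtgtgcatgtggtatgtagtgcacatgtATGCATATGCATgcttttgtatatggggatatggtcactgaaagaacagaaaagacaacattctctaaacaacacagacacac
Ebf2, chr14:68005408-68005540: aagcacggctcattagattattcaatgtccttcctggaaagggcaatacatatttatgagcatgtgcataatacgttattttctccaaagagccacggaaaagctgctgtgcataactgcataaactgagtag
Ebf3, chr7:144458460-144458592: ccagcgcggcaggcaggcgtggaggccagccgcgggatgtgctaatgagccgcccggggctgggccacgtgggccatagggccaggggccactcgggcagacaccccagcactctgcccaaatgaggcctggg
Ebf3, chr7:144394777-144394909: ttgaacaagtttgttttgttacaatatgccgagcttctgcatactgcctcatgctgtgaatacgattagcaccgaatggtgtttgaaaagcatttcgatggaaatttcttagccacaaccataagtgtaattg
Insm1, chr2:146116617-146116749: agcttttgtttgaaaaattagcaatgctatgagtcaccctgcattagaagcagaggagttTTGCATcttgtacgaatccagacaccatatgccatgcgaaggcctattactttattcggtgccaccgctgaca
Insm1, chr2:146128248-146128380: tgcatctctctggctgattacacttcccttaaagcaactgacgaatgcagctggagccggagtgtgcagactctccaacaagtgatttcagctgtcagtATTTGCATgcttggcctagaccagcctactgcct

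Capitals stand in 4 of the 8 sequences. Of these 4, 2 were chosen for display because they hold a motif, so the count is no measure of frequency. The Insm1 sequence at chr2:146128248-146128380 holds a complete octamer on the minus strand. In the Ebf2 sequence at chr14:67788527-67788659, ATGCAA stands apart from the run ATGCATATGCAT, which contains 2 overlapping copies of ATGCATAT. Both Ebf3 sequences lack all 3 motifs.

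Transcript levels are the authors' FPKM, fragment numbers scaled to the length of the transcript and to the size of the library. A gene was called different between 2 libraries when either held it at FPKM 1 or above and log2(FPKM + 1) differed by at least 1. This is a 2-fold limit on a scale that understates the change of weakly expressed genes. Any share of all genes called between 2 libraries is a share of the genes at FPKM 1 or above in either. Between the arms these numbered 12586, 12678 and 12820 at days 2, 4 and 6. Pou3f1, the induced gene, had 312, 222 and 86.8 FPKM in the induced libraries of days 2, 4 and 6, against 64.3, 10.1 and 4.76 FPKM in control cells. Induced cells were thus above control cells on each day, and control cells at day 2 were not free of Oct6 transcript. Depth was estimated from the smallest FPKM steps and spanned 0.686 to 1.49 times that of the control library of day 2, and 1 fragment on a transcript of 2000 bases was worth 0.0102 to 0.0218 FPKM. Over all expressed genes the median of induced minus control, on the log2 scale, was 0.16, 0.10 and 0.06 on the 3 days. With 1 library per arm and day there is no spread between replicates, and no difference within a day has a replicate check. In bulk RNA, fewer cells of a type and less RNA per cell cannot be told apart.

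Ebf3, known for roles in neuronal differentiation and in Cajal-Retzius and sensory neurons, had 37.3, 8.82 and 6.20 FPKM in the induced libraries of days 2, 4 and 6, against 0.0981, 0.0424 and 0.661 FPKM in control cells. The lowest induced library stood 9.38-fold above the highest control library, both at day 6, and the arms did not overlap. How many of all genes separate the arms in this way was not counted. Because the arm difference selected the genes, nothing is read from such separation, here or below. Its log2 differences of 5.12, 3.24 and 2.12 placed Ebf3 3rd from the top of 12586 genes at day 2, 29th of 12678 at day 4 and 56th of 12820 at day 6. Its control values rested on an estimated 17, 10 and 82 fragments, so the ratio at day 2 (380-fold) and at day 4 (208-fold) has a poorly known denominator. In induced cells it lay above 84.0% of expressed genes at day 2, and in control cells at day 4 above 1.7%.

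Insm1 had 59.7, 8.12 and 5.69 FPKM in the induced libraries of days 2, 4 and 6, against 1.0, 0.0785 and 0.294 FPKM in control cells. Its day 2 value in induced cells was the highest level of any of the 4 genes. Here too every induced library lay above every control library. The log2 differences of 4.92, 3.08 and 2.37 at days 2, 4 and 6 ranked Insm1 5th, 38th and 28th. As plain ratios the order of the days differed, with 59.7-fold, 104-fold and 19.3-fold, the day 4 ratio resting on an estimated 12 control fragments. Insm1 is a single-exon gene, and of its 3047 windows of 50 bases 23 (0.755%) occur in another annotated gene, so nearly all of the transcript is unique.

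Ebf1, the factor that specifies the B lymphocyte lineage and also acts in striatal and other neurons, had 19.4, 13.1 and 6.45 FPKM in the induced libraries of days 2, 4 and 6, against 0.806, 0.248 and 0.780 FPKM in control cells. The arms did not overlap. Its log2 difference was 3.49, 3.50 and 2.06 on the 3 days (28th, 19th and 59th from the top). The near equality of days 2 and 4 depends on the pseudocount, since the plain ratios were 24-fold and 52.8-fold and a pseudocount of 0.1 gave 4.42 and 5.25. Where Ebf3 and Insm1 at day 4 were at 23.7% and 13.6% of their day 2 level in induced cells, Ebf1 was at 67.7%.

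Ebf2, which acts in neuronal migration and in brown fat, departed from the other 3 genes. It had 8.11, 1.05 and 1.99 FPKM in the induced libraries of days 2, 4 and 6, against 0.0494, 0.0188 and 1.96 FPKM in control cells. At day 6 the induced level was 1.02-fold the control level, and that control value exceeded the induced value of day 4. The log2 difference was 3.12 at day 2 (51st of 12586), 1.01 at day 4 (765th of 12678) and 0.01 at day 6 (7285th of 12820). The day 4 value passed the 2-fold limit by 0.01, and scaling the libraries to a common median ratio gave 0.97 and quantile normalisation 0.89, both below the limit.

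**Figure D1:**
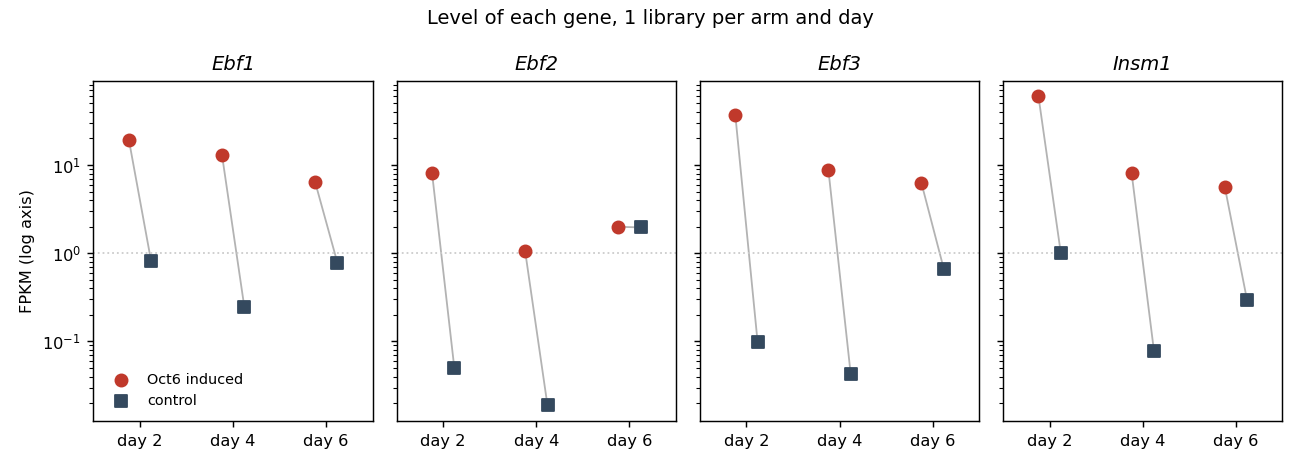
FPKM (log axis) of Ebf1, Ebf2, Ebf3 and Insm1 by day, with induced cells left of control cells and 1 library per point. Ebf1, Ebf3 and Insm1 have no overlap between the arms, a description only, since the arm difference selected the genes. Ebf2 reaches 1.99 FPKM in induced and 1.96 FPKM in control cells at day 6.

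Counted by call, 4 of the 4 genes were higher in induced cells at day 2. Of all genes at 1 FPKM or more in either library, 9.72% were called higher and 1.83% lower that day. At day 4 the count was 4 of 4, Ebf2 by the narrowest margin, against 6.09% of all genes higher and 2.11% lower. At day 6 it was 3 of 4, with Ebf2 uncalled, against 3.37% higher and 2.1% lower. Because this contrast chose the genes, nothing is read from these counts. None of the 4 was called lower on any day. The balance of calls over all genes depended on scaling: as deposited, 1223, 772 and 432 genes were higher and 230, 268 and 269 lower on the 3 days, whereas quantile normalisation gave 744, 555 and 326 higher and 474, 395 and 309 lower.

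**Figure D2:**
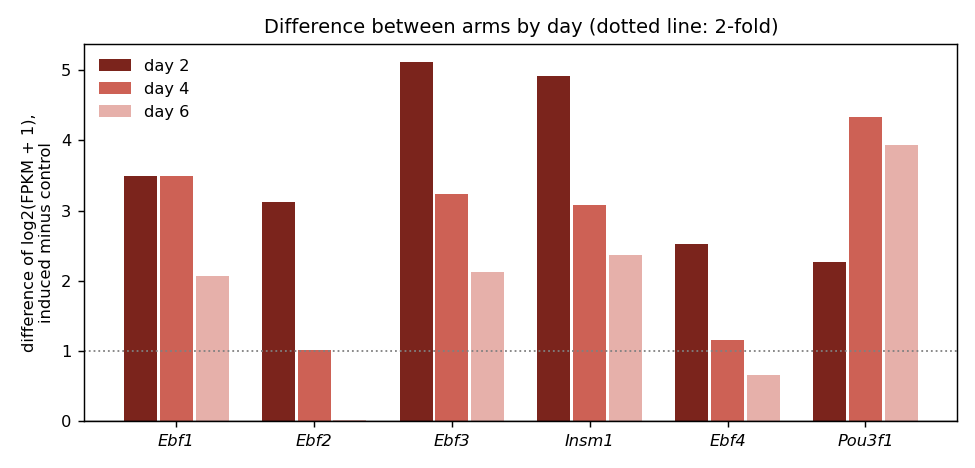
Difference of log2(FPKM + 1), induced minus control, of each gene at days 2, 4 and 6, and of Ebf4 and Pou3f1 for comparison, with bars from 0 and a dotted line at the 2-fold limit. Ebf3 has the tallest bar, 5.12 at day 2, and Ebf2 at day 6 is at 0.01, while Pou3f1 is lowest at day 2 (2.26).

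Over time, each of the 4 genes had its highest induced level at day 2, the earliest day sampled, as had 33.7% of all expressed genes. At day 6 the induced level stood at 9.52% of its day 2 value for Insm1, 16.7% for Ebf3, 24.6% for Ebf2 and 33.3% for Ebf1, and at 27.8% for Pou3f1 itself. At day 4 Pou3f1 was still at 71.3% of its day 2 level while Insm1, Ebf2 and Ebf3 were at 13.6%, 12.9% and 23.7%. Between day 2 and day 4 of the induced arm, 3 of the 4 genes, all but Ebf1, were at least 2-fold lower on the log2 scale, against 2.36% of all genes. The log2 change was -2.73 for Insm1, -2.15 for Ebf2 and -1.96 for Ebf3, and -0.53 for Ebf1. Ebf3 and Insm1 were selected on induced values that were highest at day 2, which favours a later fall. Nothing is therefore read from the counts of genes highest at day 2 or lower at day 4. Control cells showed another time course, in which Ebf2 and Ebf3 had their highest level at day 6 and Ebf1 and Insm1 at day 2. The 1.54 increase of Ebf2 between control days 4 and 6, on the log2 scale, was a control change of a called size. Insm1 between control days 2 and 4 changed by -0.89, short of the limit, but by -1.18 with quantile normalisation and -2.63 with a pseudocount of 0.1.

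The summed level and the makeup of the Ebf family are given as a description only. Ebf3 was selected on the arm difference, and Ebf1 and Ebf2 are also among the 4 genes. Ebf1, Ebf2, Ebf3 and Ebf4 summed to 70.3, 27.3 and 21.1 FPKM in the induced libraries of days 2, 4 and 6, against 1.10, 1.73 and 7.11 FPKM in control cells. Ebf4, the remaining paralogue, had 5.61, 4.37 and 6.42 FPKM in induced cells, against 0.146, 1.43 and 3.71 FPKM in control cells, and its log2 difference was 2.53, 1.15 and 0.66. Ebf3 made up 53.0% of the sum in induced cells at day 2, against 8.92% in control cells. That control share rests on an estimated 17 fragments of Ebf3. By day 6 the induced sum was nearly evenly split between Ebf1 (30.6%), Ebf3 (29.5%) and Ebf4 (30.5%), with Ebf2 at 9.47%. In control cells at day 4 Ebf4 made up 82.2% of a sum of 1.73 FPKM. No 50-base window of Ebf1 to Ebf4 is shared with another gene, so the 4 paralogues can be told apart by reads of that length.

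**Figure D3:**
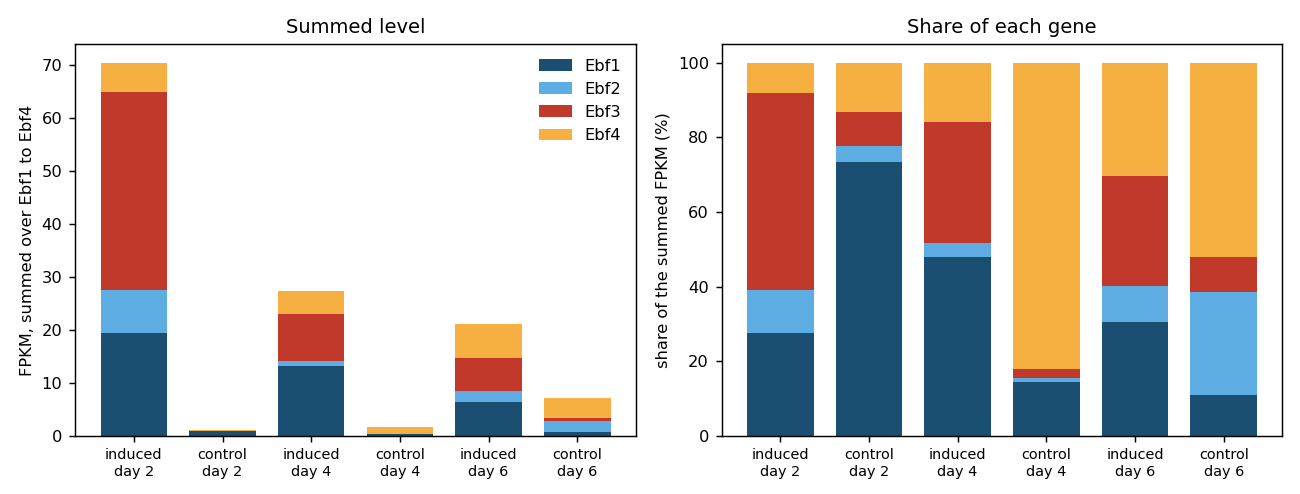
Summed FPKM of Ebf1 to Ebf4 (left panel, bars from 0 stacked by gene) and each gene's percentage of that sum (right panel) in each library, induced left of control on each day. The induced sums are 70.3, 27.3 and 21.1 FPKM and the control sums 1.10, 1.73 and 7.11, and Ebf3 holds 53.0% of the induced sum at day 2 against 8.92% of the control sum. These are a description only, since Ebf3 was selected on the arm difference.

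Proteins known to work with these factors were counted by the same calls, and with so few genes nothing is read from the counts. Zfp423 and Zfp521 are zinc finger partners that bind Ebf proteins and restrain them. Zfp423 had 8.81, 6.30 and 7.39 FPKM in the induced libraries of days 2, 4 and 6, against 8.70, 2.51 and 4.68 FPKM in control cells, and was called at day 4 alone, by a difference of 1.06. Zfp521 was called on no day. With Ebf4, the list of 3 genes held 1, 2 and 0 called higher at days 2, 4 and 6 and 0 called lower. Of all genes, 9.72%, 6.09% and 3.37% were called higher and 1.83%, 2.11% and 2.1% lower on these days. Median ratio scaling left 1 and quantile normalisation 0 of the 2 list genes called at day 4. The co-repressors that Insm1 recruits, among them Kdm1a, Rcor1, Hdac1 and Hdac2, were called on no day: 0 of 10 expressed genes. The medians over all 11 genes of that list were 0.10, 0.15 and 0.02. Insm2, the relative of Insm1 on the same list, was below 1 FPKM in every library.

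The genes that surround Ebf and Insm1 activity in neurons were followed by lists of markers. Proneural and neuronal bHLH factors, some of which act upstream of both, had 5, 2 and 6 of 11 genes at 1 FPKM or more in either library of days 2, 4 and 6. Of these, 4, 1 and 6 were called higher, against 9.72%, 6.09% and 3.37% of all genes, and 1, 0 and 0 lower, against 1.83%, 2.11% and 2.1%. Neurod1 had 22.7, 1.45 and 0.430 FPKM in induced cells, against 4.19, 0.233 and 0.420 FPKM in control cells, and its log2 difference was largest at day 2 (2.19, against 0.99 at day 4), while its plain ratio was 5.43-fold at day 2 and 6.22-fold at day 4. Nhlh1 had 6.16, 1.49 and 3.55 FPKM in induced cells, against 0, 0 and 0.0168 FPKM in control cells. Neurog1 was at 3.87, 0.665 and 1.62 FPKM in induced cells, against 0.0678, 0.0108 and 0.0671 FPKM in control cells. Nhlh2 differed in timing, with 0.118, 0.630 and 3.0 FPKM in induced cells, against 0.0211, 0.00701 and 0.0402 FPKM in control cells. The gene called lower was Neurog3, at 0.230 FPKM in induced and 2.67 FPKM in control cells at day 2.

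Neuron markers had most of their calls at day 6. Of 22 expressed markers (Map2 is not in the table), 16, 19 and 22 were at 1 FPKM or more in either library of days 2, 4 and 6. Of these, 6, 8 and 15 were called higher, against 9.72%, 6.09% and 3.37% of all genes, and 0, 0 and 1 lower, against 1.83%, 2.11% and 2.1%. The median log2 differences over the 23 markers in the table were 0.50, 0.81 and 1.10. Their highest induced level fell at day 6 for 13 of 22, at day 4 for 4 and at day 2 for 5, against 43.2%, 23.1% and 33.7% of all expressed genes. Dcx (doublecortin, which binds microtubules in young neurons) had 0.719, 3.43 and 8.68 FPKM in induced cells, against 0.0438, 0.0494 and 0.132 FPKM in control cells. Tagln3, a gene of the transgelin family used as a neuron marker, had 3.26, 5.76 and 14.9 FPKM in induced cells, against 2.89, 1.81 and 3.05 FPKM in control cells. Elavl3, an RNA-binding protein of neurons, had 1.27, 1.81 and 4.17 FPKM in induced cells, against 1.63, 0.549 and 0.329 FPKM in control cells. These 3 markers were highest in the induced library of day 6. Tubb3, a neuronal tubulin, had 50.7, 28.6 and 56.2 FPKM in induced cells, against 15.4, 2.92 and 10.3 FPKM in control cells, and so was nearly as high at day 2 as at day 6. Gap43, a growth cone protein, was among the 5 markers highest at day 2, with 21.2, 10.6 and 19.9 FPKM in induced cells, against 5.45, 2.35 and 7.02 FPKM in control cells.

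**Figure D4:**
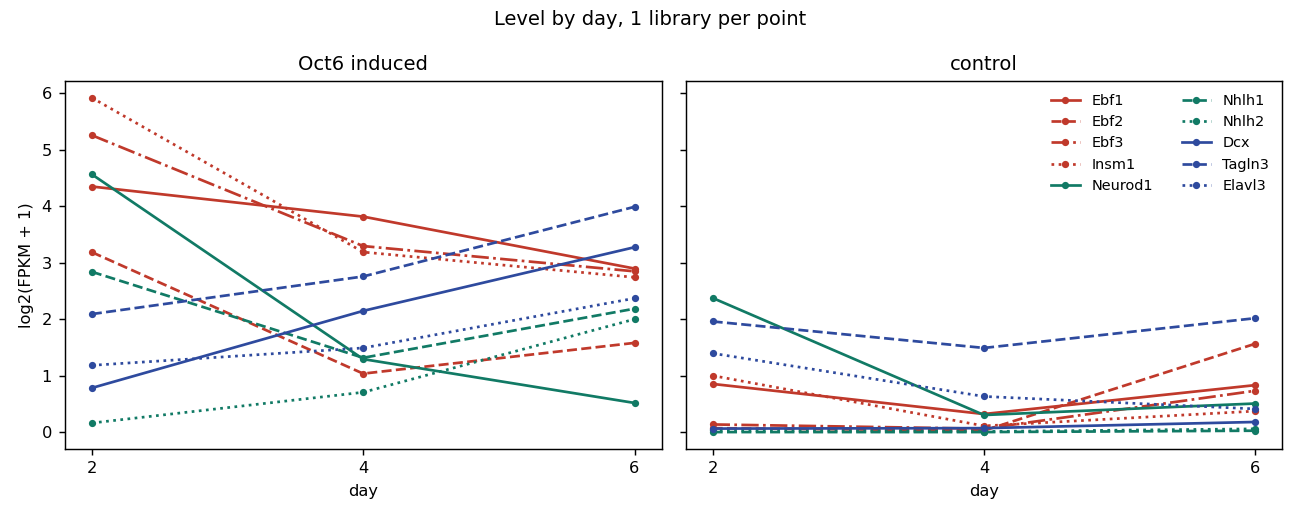
Levels as log2(FPKM + 1) by day in induced cells (left panel) and control cells (right panel), with 1 library per point, for the 4 genes (red), 3 bHLH factors (green) and 3 of the neuron markers (blue). In induced cells the 4 genes are highest at day 2, where Insm1 has 59.7 FPKM, and Dcx, Tagln3 and Elavl3 at day 6, where Tagln3 has 14.9 FPKM. The 3 markers drawn do not stand for the list. Of 22 expressed markers, 13 are highest at day 6, 4 at day 4 and 5 at day 2. Tubb3, not drawn, has 50.7 FPKM at day 2 and 56.2 FPKM at day 6.

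Isl1, a motor neuron and heart progenitor factor, was the 1 marker called lower, at 6.12 FPKM in induced and 16.7 FPKM in control cells at day 6. Neuroendocrine secretory genes, the class in which Insm1 acts outside the brain, had 8, 10 and 8 of 10 genes at 1 FPKM or more in either library of days 2, 4 and 6. Of these, 6, 6 and 4 were called higher, against 9.72%, 6.09% and 3.37% of all genes. None was called lower, against 1.83%, 2.11% and 2.1%. The medians over the 10 genes were 1.29, 1.17 and 0.87. Pcsk1, a prohormone convertase, had 6.77, 11.7 and 1.08 FPKM in induced cells, against 0.355, 4.31 and 0.361 FPKM in control cells. Chga, the chromogranin A gene, was not called, at 3.46, 2.46 and 2.99 FPKM in induced cells, against 4.10, 3.87 and 2.62 FPKM in control cells.

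Where the arm difference could be tested across the 3 days, limma with day as a block called 2 genes higher and 1 lower of 13661 at an adjusted p threshold of 0.05 (Benjamini-Hochberg), or 0.022%, and no gene of the 15 lists. The fit has 2 residual degrees of freedom. At an unadjusted p threshold of 0.05, 16.3% of all genes were higher and 4.72% lower, that is 2225 and 645 genes. Median ratio scaling gave 1528 and 1112, quantile normalisation 1430 and 1251, and the fit with no day block 1009 and 140. With the values as deposited the counts were 14 of 22 neuron markers, 9 of 10 neuroendocrine genes and 4 of 8 bHLH factors higher, with none of these lower. Among the Insm1 co-repressors Hdac2 was higher and Rcor2 lower by that unadjusted threshold. By the same threshold 5 of 6 visceral endoderm markers, 2 of 7 heart and blood markers and 2 of 7 housekeeping genes were lower. The housekeeping genes were Actb and Gapdh, and none of these 3 lists had a gene higher.

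Markers of other cell types in which Ebf factors or Insm1 act were expressed to differing extents. In the B lymphocyte list, where Ebf1 is a master regulator, 10 of 12 genes stayed below 1 FPKM in all libraries. Pax5 was the exception called, at 2.45, 2.84 and 1.13 FPKM in induced cells, against 0.0601, 0 and 0.396 FPKM in control cells (1, 1 and 0 called higher). The adipocyte list, relevant to Ebf2, had none of 9 genes at 1 FPKM. Pancreatic endocrine genes had 3 of 10 expressed: Gcg, Sst and Neurog3, with Pdx1, Ins1 and Ins2 below 1 FPKM. At days 2, 4 and 6, 2, 1 and 2 of the list were at 1 FPKM or more in either library. Of these, 1, 1 and 2 were called higher and 1, 0 and 0 lower. Gcg was higher on each day and Sst at day 6, and Neurog3, also on the bHLH list, was lower at day 2. The olfactory list had 4 of 7 genes at 1 FPKM or more (Gng8, Adcy3, Gnal and Lhx2) and 1, 1 and 0 called higher, namely Lhx2, while Omp, the marker of mature olfactory neurons, stayed below 1 FPKM. Notch pathway genes were all expressed and had 0, 0 and 2 of 10 higher and 1 lower at day 6. Neural progenitor markers, also all expressed, had 2, 5 and 3 of 9 higher and 1, 0 and 0 lower. The gene lower was Sox2, which is counted again in the pluripotency list below. Hes5, higher at day 6, is counted in both the Notch and the progenitor list. At 1 FPKM or more in either library of days 2, 4 and 6 were 2, 1 and 1 B lymphocyte and 3, 4 and 4 olfactory genes. For the Notch list these numbers were 7, 8 and 10, and for the progenitor list 6, 8 and 9. Beside these counts, 9.72%, 6.09% and 3.37% of all genes were called higher and 1.83%, 2.11% and 2.1% lower on the 3 days.

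Markers of other lineages differed between the arms on the same days, and their part in the values of the 4 genes was not tested. Of 6 visceral endoderm markers 2, 6 and 6 were lower in induced cells at days 2, 4 and 6, their sum being 4.57, 5.35 and 12.5 FPKM in induced cells, against 20.9, 108 and 165 FPKM in control cells. Of 7 heart and blood markers 1, 3 and 6 were lower, their sum being 5.48, 5.61 and 163 FPKM in induced cells, against 10.3, 21.1 and 1530 FPKM in control cells. No visceral endoderm marker was at 0 in any library, and of the heart and blood markers Hba-x was at 0 at day 4 in both arms. Pluripotency markers had 0, 3 and 2 of 8 higher and 4, 0 and 0 lower. Those at 1 FPKM or more in either library numbered 3, 6 and 6 for visceral endoderm and 2, 4 and 7 for heart and blood. All 8 pluripotency markers were at that level on each day. Beside these counts, 9.72%, 6.09% and 3.37% of all genes were called higher and 1.83%, 2.11% and 2.1% lower. The 7 housekeeping genes were called on no day, with medians of -0.17, -0.04 and 0.02.

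Likeness of profile was measured as the root mean square difference of centred log2(FPKM + 1) values over the 6 libraries, among 13660 other expressed genes, with 0 meaning an identical shape. Tppp3, a microtubule-bundling protein gene, was the closest to Ebf3 (0.26) and to Insm1 (0.33). Ebf3 was the 2nd closest gene to Insm1 and Insm1 the 4th closest to Ebf3, at 0.44, but both had been selected on the same difference between the arms. Igfbpl1 (0.42), Gcg (0.43) and Ebf1 (0.52) completed the 5 closest to Ebf3, and Gcg (0.49), Cntn2 (0.63) and A930038C07Rik (0.67) those of Insm1. Gcg, the preproglucagon gene, had 19.1, 4.35 and 2.08 FPKM in induced cells and is listed at 0 in all 3 control libraries. Cntn2, an axonal adhesion molecule, had 39.8, 8.78 and 5.52 FPKM in induced cells, against 0.952, 2.02 and 0.466 FPKM in control cells.

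Ebf1 had other neighbours in shape, namely A930038C07Rik (0.31, now Ndnf in RefSeq), Mir3078 (0.33), Prkg2 (0.34), Tmem56 (0.35) and Trpc4 (0.36), with Ebf3 in 17th place. FPKM of a short RNA such as Mir3078 is imprecise in a library of long transcripts. Ebf2 stood furthest from the rest. Its closest genes were 1810011O10Rik (0.14, now Tcim), Lama4 (0.34), Pla2g7 (0.34), Grin2c (0.37) and Atp11a (0.40), and Ebf1, Ebf3 and Insm1 took places 6667, 9542 and 12370. Counted from the other side, at the same differences of 1.07, 1.14 and 1.29, Ebf2 took place 307 from Ebf1, 104 from Ebf3 and 108 from Insm1. The measure is not scaled to the size of a gene's changes, so a place depends on the gene it is counted from. Lama4, a laminin chain, shows the shape, with 18.6, 4.06 and 3.37 FPKM in induced cells, against 0.303, 0.610 and 4.36 FPKM in control cells.

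The deposited list of day 4 Oct6 peaks held 7979 peaks, each with the authors' score, which is used here only to rank peaks within the list; scores ran between 7.6 and 145.6 with a median of 11.4. For the 4 genes 17 peaks lay within 100 kb of the gene's start or inside the gene, with scores between 8.9 and 17.7. Of these, 12 lay in introns and 5 outside the gene, and 9 had a score at or above the list's median. Scores are heavily tied, with 44 distinct values in the list. The median score of 11.4 has rank 2785 and a score of 10.1 has rank 4686 of 7979. Nothing is read from the count of 9. The best rank of the 17 was 359 of 7979.

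Within 10 kb of a start there was 1 peak, in Ebf2, and none for Ebf1, Ebf3 or Insm1, so 1 of 4 genes had one, against 12.4% of 22367 protein-coding genes. That peak has a score of 13.9 (rank 1063). Within 100 kb, Ebf1 had 3 peaks, Ebf2 4, Ebf3 1 and Insm1 2. That is 4 of 4 genes, against 47.6% of protein-coding genes.

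Inside the gene, Ebf1 held 7 peaks over 390.8 kb, Ebf2 3 over 196.5 kb and Ebf3 2 over 120.8 kb, while Insm1, at 3.1 kb, held none. All 3 long genes had a peak in the body, against 42.3% of the 2401 protein-coding genes of 100 kb or more. Per 100 kb of gene body this came to 1.79 for Ebf1, 1.53 for Ebf2 and 1.66 for Ebf3, ranks 70, 105 and 86 among those 2401 genes, whose median is 0 and 90th percentile 0.95. Ebf4 held none. The Ebf1 peaks were in introns 5, 6, 8, 10 and 11, with 3 in intron 6, 17.2 to 360.9 kb past the start, and the Ebf3 peaks in introns 6 and 11, 47.6 and 111.3 kb past the start. The highest score of the 17, at 17.7, belonged to the peak in intron 8 of Ebf2, 153.3 kb past its start. Both Insm1 peaks, 69.0 and 80.7 kb away, lay inside Ralgapa2, and the Ebf1 peak at -97.0 kb lay in Rnf145, 1.3 kb from that gene's start.

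**Figure D5:**
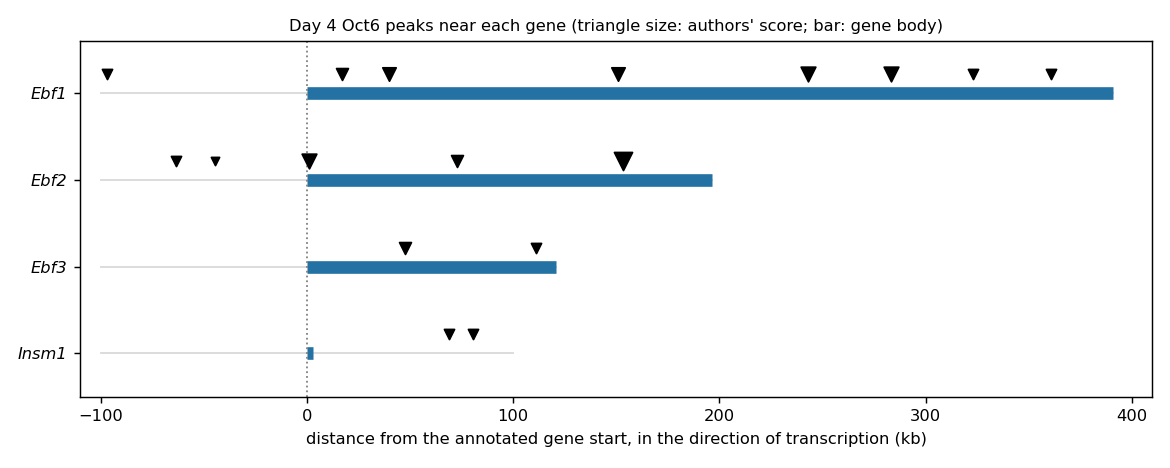
Oct6 peaks within 100 kb of the start or inside Ebf1, Ebf2, Ebf3 and Insm1, by distance from the gene's start in kb (horizontal axis), in the direction of transcription, with a bar for the gene body and triangles sized by the authors' score. Ebf2 has the 1 peak within 10 kb, and Insm1 has 2 peaks, at 69.0 and 80.7 kb.

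For the letters under the peaks, 16 of the 17 were read, and ATGCAAAT was found in 1 of 16, against 4.19% of 7965 peaks on assembled chromosomes, and its shorter form ATGCAA, which every octamer contains, in 5 of 16, against 16.6%. ATGCATAT was in 1 of 16, against 7.18%. The Ebf core CCCNNGGG was in none, against 3.18%, and the E-box CANNTG, the site of bHLH factors, in 7 of 16, against 53.6%. Both strands were read, and a match is a description and not a bound site. Of RefSeq promoters (GRCm38.p6, 300 bases), Ebf3 and Ebf1 have entries. The Ebf3 promoter is 77.0% GC and holds 1 CCCNNGGG, as 13.7% of 32851 promoters do, while the 2 Ebf1 promoters hold none.

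Genes next to the 4 were examined in the same way. None of the nearest protein-coding genes on either side (Rnf145 and Clint1 for Ebf1, Ppp2r2a and Cdca2 for Ebf2, Mgmt and 9430038I01Rik for Ebf3, 4930529M08Rik and Ralgapa2 for Insm1) was called on any day. Of these, 4930529M08Rik, 6.9 kb from Insm1, was at most at 0.283 FPKM in any library and could not be called. The largest difference in size was -0.54, of 9430038I01Rik at day 2, with 5.38 FPKM in induced and 8.29 FPKM in control cells. Ralgapa2, which holds both Insm1 peaks and lies 14.9 kb from Insm1, had 5.15, 4.80 and 5.08 FPKM in induced cells, against 4.29, 6.19 and 5.52 FPKM in control cells. Gm6878, whose span overlaps that of Ebf2 on the other strand, reached at most 0.164 FPKM. Whether the exons of these genes overlap was not examined, so it is unknown whether reads could be assigned to the wrong gene.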

How the data were processed

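Expression values are the FPKM that the authors deposited as 1 table of gene symbols by library; the tools, per the submitters' processing notes, included Cufflinks 1.3.0 and Cuffdiff, TopHat 1.4.1 and HOMER, and the build was mm9. The peak list gives a position and a score per peak, both deposited by the authors. The sources used here do not say whether counting used strand. FPKM was taken as log2(FPKM + 1), and a difference within a day had no test. Across days, limma 3.58.1 (R 4.3.3) was fitted with day as a block to 13661 genes with FPKM of at least 1 in 1 or more libraries, with Benjamini-Hochberg adjustment, and was checked on simulated data. The spread it tests is that of the arm difference between days, and nothing says that libraries came from separate cultures. Peaks were placed on NCBIM37 with its GENCODE annotation, leaving out 14 on unplaced contigs. The sequence of 1 peak is not reported here. The 4 genes and the 15 lists were chosen with earlier results of these data known. Named were the 4 genes, Pou3f1, up to 4 called genes with the largest difference per list, all genes of lists of up to 3, nearest neighbours, and the 5 closest profiles per gene; Isl1, Chga, Gap43, the expressed olfactory genes and the silent markers were named after their values were seen. Alternatives were another pseudocount (0.1), median ratio scaling, quantile normalisation, no filter, no day block, each day left out, and other peak windows, scores and overlaps.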

Additional observations from a re-analysis of the deposited data

How the results depend on the processing

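For the 4 genes, 11 of 12 differences between the arms kept their side of the 2-fold limit under median ratio scaling and under quantile normalisation, and 12 of 12 with a pseudocount of 0.1. The exception was Ebf2 at day 4, which dropped below the limit, at 0.97 with median ratio scaling and 0.89 with quantile normalisation. Of 24 changes between days within an arm, 24 kept their call under median ratio scaling. A pseudocount of 0.1 added 3 calls and quantile normalisation 2, in both cases including Insm1 between control days 2 and 4. Changes with both libraries below 1 FPKM cannot be called and are not among these, whatever their size. Several such control changes passed 1 in size with a pseudocount of 0.1. For Ebf3 between control days 4 and 6 the change was 0.67 as deposited and 2.42 with that pseudocount, and for Ebf1 0.51 and 1.34. The limma counts of 2 higher and 1 lower gave 0 higher with a pseudocount of 0.1, 4 higher and 3 lower with quantile normalisation, and 0 and 0 with no filter on FPKM; leaving out day 2, day 4 or day 6 gave 0 and 0 each time. The fit with no replicate block, that is without day as a block, gave 2 and 1. No paired analysis by replicate was possible because each arm has 1 library per day. Over all genes, quantile normalisation called 744 higher and 474 lower at day 2, against 1223 and 230 as deposited, and a pseudocount of 0.1 called 1950 and 383. Peaks near the start depended on the window: 2, 2 and 1 peaks within 50 kb of Ebf1, Ebf2 and Ebf3, and 3, 4, 1 and 2 within 100 kb of Ebf1, Ebf2, Ebf3 and Insm1. The causes were not tested. Low control levels, an estimated 4 to 17 fragments for Ebf2 and Ebf3 at days 2 and 4, limit every ratio to them.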
